A study of Mus musculus with 38 samples.

Results

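The genes described here are 36 genes of motile cilia, listed by name and not by a threshold on their values. Of the 36, 32 were matched to a probe on the array through a transcript accession, among 20018 genes with a symbol in the whole series. No probe was matched to Dnah12, Ccdc40, Ccdc114 or Cfap43. For the 8 genes with more than 1 probe, the probe with the highest mean Cy5 intensity over all arrays was used. The list holds 6 regulators, 10 dynein genes, 4 genes of dynein docking and the axonemal ruler, 7 genes of radial spokes and the central pair, 7 tektins and other axoneme genes, and 2 factors that assemble dynein arms in the cytoplasm.

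Lung and forestomach RNA was profiled in male MutaMouse, a transgenic strain used in mutation assays, aged about 10 weeks. The mice were gavaged daily for 28 days with dibenz(a,h)anthracene (DBahA), a polycyclic aromatic hydrocarbon, dissolved in olive oil, and were dissected 72 h after the final gavage. Group D0 received olive oil alone and was sampled in 5 lungs and 5 forestomachs. Group D1 received 6.25 mg/kg-bw/day (5 lungs, 5 forestomachs), D2 received 12.5 (4 and 4) and D3 received 25 (5 lungs and 4 forestomachs). All groups were of the same strain and sex. Each array compared tissue RNA (Cy5) with a reference RNA pooled from 11 mouse cell lines (Cy3), and every value below is the log2 ratio of the first over the second unless stated otherwise. RNA came from random sections of frozen tissue, so the amount of airway in a lung section was not fixed by the design. Of the D3 forestomach arrays, 2 carry the same mouse number, 18, and were averaged to 1 value. They were far apart for some members, such as Tppp3 (4.00 and 2.12) and Rsph9 (0.56 and 1.51), and close for others, such as Ccno (-1.01 and -1.09). A D3 lung carries the number 20 and no forestomach array does. Whether both arrays came from 1 mouse was not tested.

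Motile cilia move fluid over the surface of the airways. In the lung they stand in bundles on multiciliated cells of the airway epithelium, beside secretory club cells, and they are not a feature of the stratified squamous epithelium that lines the forestomach. A cell becomes multiciliated under Mcidas, Ccno and Myb, after which Foxj1, a forkhead factor, and the RFX factors Rfx2 and Rfx3 turn on the genes of the axoneme. The axoneme is a ring of microtubule doublets around a central pair, bent by dynein motors and held in register by rulers, radial spokes and tektins.

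The tissues carried the markers of their labels. In untreated mice, Sftpc of type 2 alveolar cells was higher in lung by 6.76 ± 0.353 (SE) and Ager of type 1 cells by 5.30 ± 0.146. Krt13 and Krt5 of squamous and basal epithelium were lower in lung by a log2 difference of -5.96 and -3.54. The share of probes whose Cy5 signal was well above background ran from 41.4% to 63.7% over the lungs and from 30.05% to 60.8% over the forestomachs. Other tissue moved between samples. The mean of heart muscle markers ran from 0.12 to 2.95 over the 19 lungs, and that of glandular stomach markers ran from 0.28 to 6.91 over the 18 forestomachs.

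Because Rfx2 and Rfx3 are members and RFX factors bind a DNA element called the X-box, promoters of the members were searched for its core letters. RefSeq promoters (build GRCm38.p6, from 250 bases before to 50 bases after a transcript start) were found for 31 of the 36 members. Foxj1, Rsph1, Rsph4a, Lrrc6 and Tppp3 had no entry. The letters GTTGCC, on either strand, were present in 13 of the 31 (41.9%), against 14.1% of 27025 genes with a promoter in the table. The longer X-box palindrome, GTTNCC followed after 2 bases by its complement GGNAAC, was in 0 of 31 members and 0.529% of genes. It can overlap the shorter letters. The forkhead letters GTAAACA were in 3 of 31 (9.68%) and 4.05% of genes. These are counts of letters and say nothing of binding. Windows around the match are shown for 5 members of 4 roles that were called higher in lung, each ending at or before the transcript start, in gene orientation, with the matched letters in capitals (GTTGCC or its complement GGCAAC).
Ccno (chr13:112987571-112987600): acccgggctgcgGTTGCCacggtgacgaca
Dnai2 (chr11:114727381-114727410): ccagggttgctaGGCAACtggtaaactccg
Hydin (chr8:110266952-110266976): tgcggttgctgtGGCAACagatggt
Tekt1 (chr11:72361900-72361929): tcttctaactagGGCAACgttgcgtccgtc
Tekt2 (chr4:126325693-126325722): gggcggttgctcGGCAACcagagccgcaaa
Ccno, Dnai2 and Hydin lie on the plus strand, and Tekt1 and Tekt2 on the minus strand. The match shown ended 20 bases before the start in Dnai2, 7 in Hydin and 213 in Ccno. In Tekt1 it ended 29 bases before the start, and another match ended 9 bases before it. In Tekt2 it ended 58 or 16 bases before the start, depending on the transcript, and another match 132 or 90 bases before it.

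The first comparison asked where the members are expressed without exposure. In D0 mice, 26 of the 32 members were called higher in lung than in forestomach, and 0 were called lower. A call required a Benjamini-Hochberg adjusted p of at most 0.05 in limma over all 55681 probes and a fold change of at least 1.5. Over all probes, 16.2% were called in this comparison, and 8.62% were called higher. The members' median log2 difference was 1.72, against -0.01 over all probes. The values of all 5 D0 lungs lay above those of all 5 D0 forestomachs for 26 members, and for 20 members this held over all mice of all doses. In a piece of tissue, more ciliated cells and more RNA per ciliated cell cannot be told apart.

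**Figure D1:**
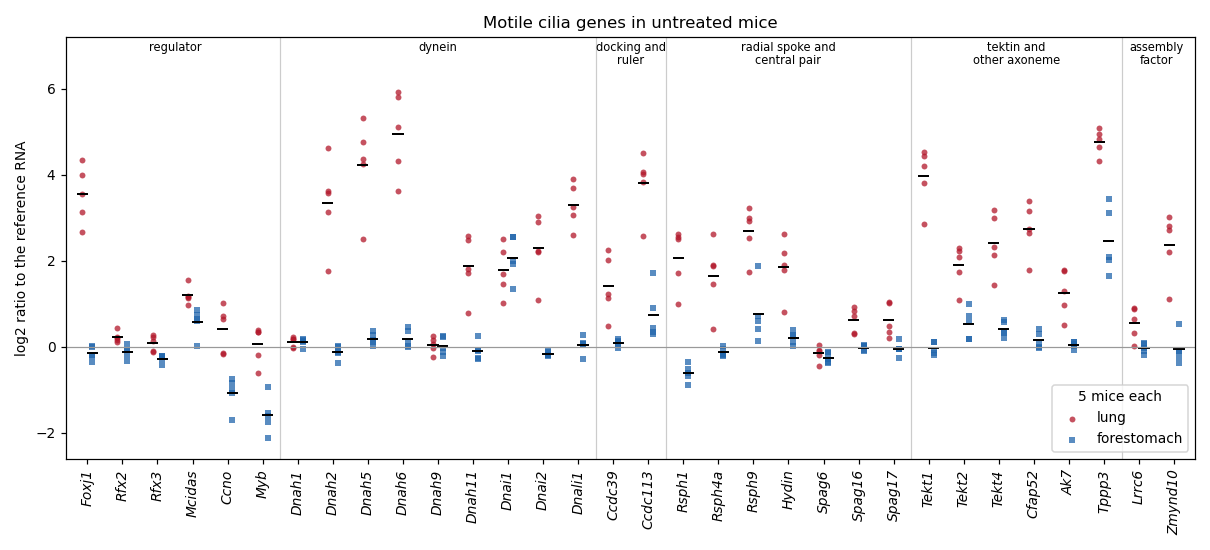
Log2 ratio to the reference RNA (vertical axis) of the 32 measured members in D0 mice, 1 point a mouse (5 lungs as circles, 5 forestomachs as squares) with the group mean as a bar, in blocks by role. Dnah6, Dnah5, Tekt1 and Foxj1 are wide apart between the tissues, and Dnah1, Dnah9, Dnai1, Spag6, Rsph9 and Lrrc6 overlap.

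Foxj1, the forkhead factor of ciliated cells, was at 3.14, 3.56, 2.67, 3.99 and 4.35 in D0 lungs of mice 1 to 5. In their forestomachs it was at -0.18, -0.35, -0.21, 0.01 and -0.01. The groups did not overlap, and the log2 difference was 3.69 ± 0.229 (SE, n = 5 and 5, limma adjusted p = 5.93e-15). Foxj1 was well above background on all 19 lung arrays and on 0 of 19 forestomach arrays, so its ratio in forestomach gives no level and the difference is against background signal. The direction held under all alternatives, but the size did not: the difference was 2.17 with each array centred on its median in place of loess, and 5.14 with the scanner software's own log ratio. For other members below background on all D0 forestomach arrays, a bound ("at least") is given that compares mean normalized Cy5 values of the D0 lungs with a floor, the lowest forestomach signal among probes well above background, or the probe's own signal where that is higher. Bounds rest on 1 channel with no dye swap and are open to dye bias. For Foxj1, Rfx3, Dnali1, Tekt1 and Cfap52 the Cy5 value exceeded the fold of the ratios, so no bound is given for them.

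Among the other regulators, Ccno, below background on all D0 forestomach arrays, was at least 2.71-fold higher in lung (adjusted p = 2.76e-06 in limma). Myb, above background on 4 of 5 D0 forestomach arrays, was higher by 1.64 ± 0.215 (limma adjusted p = 1.84e-07). Mcidas, which acts early, was above background on all arrays of both tissues and higher in lung by 0.63 ± 0.145 (limma adjusted p = 0.000813). Its only probe had the highest mean log2 Cy5 value of all measured members in both tissues, 13.7 in D0 lungs and 13.2 in D0 forestomachs. Whether this probe reads Mcidas alone was not tested. Mcidas lay near the fold threshold, at 1.55-fold. Rfx2 and Rfx3 passed the adjusted p in limma (0.00874 and 0.00895) with log2 differences of 0.35 and 0.36, under the fold threshold, and both were below background on all D0 forestomach arrays. The other probes of Rfx3, above background on 2 and 3 of 19 lung arrays, gave 0.18 and -0.10 (limma adjusted p = 0.0877 and 0.471). RFX factors also serve the immotile primary cilium found on many cell types. The calls of 3 members outside the regulators, Lrrc6, Spag16 and Spag17, also lay near the threshold. These were above background on 12, 12 and 10 of 19 lung arrays and on 0 of 19 forestomach arrays, and their bounds were at least 1.22-fold, 1.12-fold and 1.14-fold, all under the fold threshold.

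Of 9 measured dynein genes, 6 were called higher in lung. Dnah6 is an inner arm heavy chain. Its values in D0 lungs of mice 1 to 5 were 5.11, 4.33, 3.62, 5.82 and 5.93, and in forestomach they were 0.01, 0.13, 0.46, 0.00 and 0.36. The groups were far apart, with a log2 difference of 4.77 ± 0.364 (limma adjusted p = 1.21e-12). Dnah6 was above background on 1 of 5 D0 forestomach arrays, so the size of this difference is taken mostly against background. Dnah5, the heavy chain of the outer arm, was at 4.36, 4.75, 2.51, 4.24 and 5.33 in the lungs and at 0.15, 0.27, 0.37, 0.02 and 0.10 in the forestomachs. It was at least 8.32-fold higher in lung (limma adjusted p = 1.51e-12). Dnali1, an inner arm light chain below background in forestomach, had a log2 difference of 3.26 ± 0.189. Dnah2 was at least 6.45-fold higher, Dnai2, an outer arm intermediate chain, at least 4.31-fold, and Dnah11, an outer arm heavy chain, at least 3.42-fold.

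The only Dnai1 probe, whose sequence could not be checked, differed from the probe of its partner Dnai2. In D0 lungs of mice 1 to 5 the Dnai1 probe was at 1.69, 1.46, 1.02, 2.22 and 2.50, and in forestomach at 1.35, 2.54, 1.93, 2.00 and 2.55. The groups overlapped, the probe was above background on all arrays of both tissues, and the log2 difference was -0.30 ± 0.306 (limma adjusted p = 0.535). Dnah1 and Dnah9, heavy chains of the inner and outer arm, were below background in all D0 mice of both tissues, and their values give no level. Dnah1 ran from -0.03 to 0.24 in D0 lungs and Dnah9 from -0.23 to 0.24. Dnah9 was not above background on any of the 19 lung arrays, and the array holds 1 probe for each.

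Of 7 genes of radial spokes and the central pair, 6 were called higher in lung. Rsph1, a spoke head gene, was higher by 2.69 ± 0.263 (limma adjusted p = 4.01e-10), Rsph4a by 1.77 ± 0.266 and Rsph9 by 1.93 ± 0.315. Hydin, a large protein of the central pair, was higher by 1.66 ± 0.208. Of the 5 D0 forestomach arrays, Rsph4a and Hydin were each above background on 1 and Rsph1 on 3. The sizes of these 3 differences are thus taken partly against background. Rsph9 was above background on all forestomach arrays too, and its D0 values overlapped between the tissues. Spag6, a central pair gene, was above background on 1 lung array and no forestomach array. It ran from -0.44 to 0.05 in D0 lungs and from -0.38 to -0.12 in forestomachs, with a log2 difference of 0.11 ± 0.0919 (adjusted p = 0.452). The second probes of Rsph1, Rsph4a and Hydin were also called higher, each while above background on 0 forestomach arrays. The second probes of Spag16 and Spag17 were above background on no array and were not called.

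All 6 measured tektin and other axoneme genes were called higher. Tekt1, a filament protein inside the doublets, was at 3.82, 4.21, 2.85, 4.44 and 4.53 in D0 lungs of mice 1 to 5. In forestomach it was at -0.07, 0.10, -0.13, -0.18 and 0.12. The groups did not overlap, and the log2 difference was 4.00 ± 0.225 (limma adjusted p = 4.04e-16) against background signal in forestomach. The second Tekt1 probe was also called higher. Cfap52, below background on all forestomach arrays, had a log2 difference of 2.60 ± 0.194, and Ak7 was at least 1.59-fold higher. Tppp3, a tubulin-binding protein, was measured in all samples and differed by 2.31 ± 0.306. Tekt2 and Tekt4 differed by 1.37 and 2.01. In the remaining roles, Ccdc113 was higher by 3.06 ± 0.361, Ccdc39, a ruler of the doublets, by at least 1.92-fold, and Zmynd10, a cytoplasmic assembly factor, by 2.43 ± 0.252. Of the 5 D0 forestomach arrays, Zmynd10 was above background on 1, Ccdc113 on 2 and Tekt2 on 3. Their sizes are thus taken partly against background.

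The level in forestomach was not uniform. Of the 32 members, 14 were above background on none of the 19 forestomach arrays, 13 on some and 5 on all (Mcidas, Dnai1, Rsph9, Tekt4 and Tppp3). Tppp3 ran from 1.65 to 4.03 over the 18 forestomachs with a median of 3.01, and Rsph9 ran from -0.01 to 1.89 with a median of 0.81.

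A wider list of 80 other genes of motile cilia was read in the same fit. Of the 70 with a probe, 51 were called higher in lung and 0 lower, with a median of 1.35. Its 5 largest differences were 5.20 for Fam183b, 5.02 for Ccdc153, 4.67 for Tmem212, 4.57 for Dynlrb2 and 3.74 for Odf3b. A list of 40 genes of cilia in general, such as intraflagellar transport and the basal body, had 16 called higher, 0 lower and a median of 0.43. In that list Ift43 was highest at 1.53, followed by Bbs9 at 1.04, Ift81 and Ift88 at 0.99 and 0.98, and Dync2li1 at 0.87. Club cell markers were higher in 6 of 8, with Scgb1a1 at 3.15 ± 0.440, and basal cell markers were lower in 5 of 6. Of 7 markers of other secretory cells, 1 was called lower, Muc5ac at -4.18 ± 0.901, and 1 higher, Muc5b at 1.37 ± 0.512, which was named after its value was seen.

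The second comparison asked whether exposure to DBahA moved the members in lung. None of the 32 members was called at D1, D2 or D3 by limma. The background was low, with 0.14%, 0.264% and 0.639% of probes called at the 3 doses. Among the members the smallest adjusted p at these doses was 0.836, 0.567 and 0.455. An unadjusted p under 0.05 was found in 0 members at D1, 1 at D2 (Rfx3) and 0 at D3, against 6.53%, 8.07% and 11.3% of all probes. With the mean of the 3 doses set against D0, 0.411% of probes and 0 members were called, and the smallest adjusted p was 0.380, for Rfx3. At D3 the Rfx3 probe used here was at -0.19, and its other probes, below background on most lung arrays, were at -0.02 and 0.18. The values of no dose group lay wholly above or wholly below D0 for any member.

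**Figure D2:**
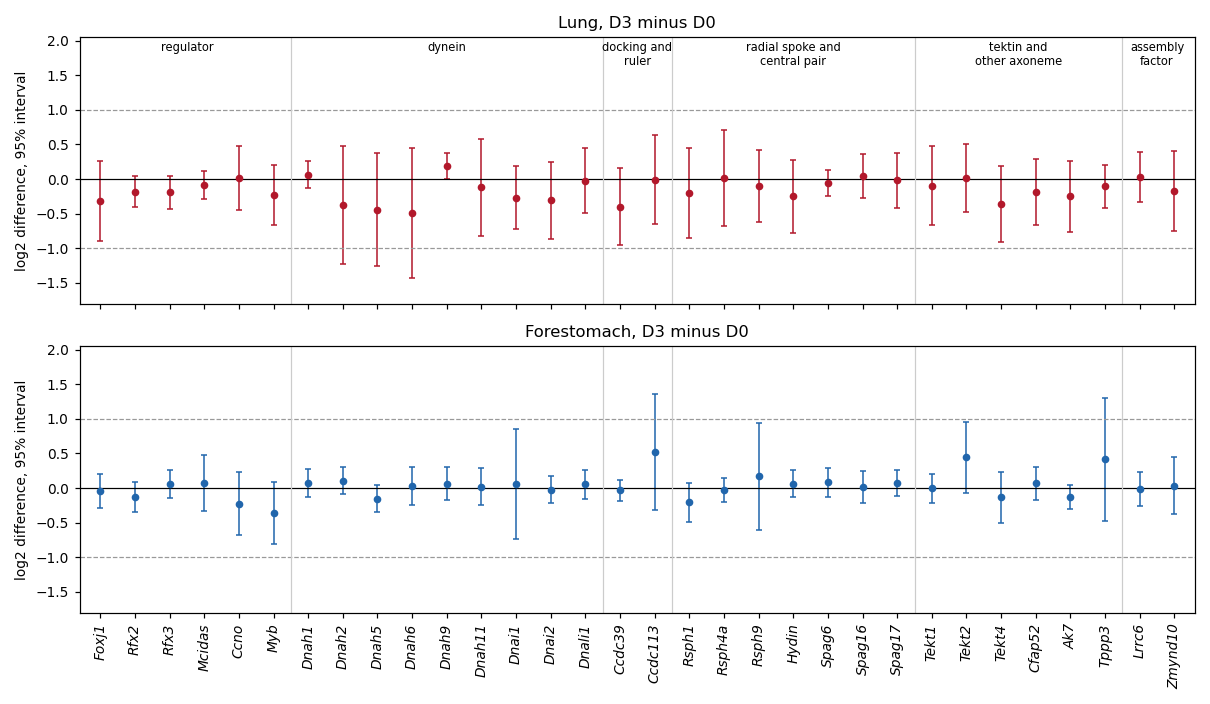
Log2 difference of D3 minus D0 (points) with its 95% interval (bars) for the 32 measured members in lung (top) and forestomach (bottom), in blocks by role, with dashed lines at a 2-fold change. In lung the intervals of Dnah2, Dnah5 and Dnah6 pass the lower line, and the other 29 stay inside both lines. In forestomach, 14 members were above background on no array, and their intervals say nothing of a change.

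The estimates lay below 0 for 25 of the 32 members at D3, with a median log2 difference of -0.15, against -0.0003 over all probes. The median was -0.24 at D1 and -0.13 at D2. Single D0 lungs moved these sizes: without D0 mouse 3 the medians were -0.45, -0.32 and -0.35 at D1, D2 and D3, and without D0 mouse 5 they were -0.09, -0.03 and -0.03. The directions depend on the scaling: with each array centred on its median in place of loess, 14 of the 32 members were lower at D3, and the median was 0.07 at D3 and 0.01 at D1. Foxj1 was at 3.49, 3.52, 2.95, 2.90 and 3.25 in D3 lungs of mice 16 to 20. All 5 lay within the range of the D0 lungs, from 2.67 to 4.35. The log2 difference of Foxj1 was -0.32 (95% interval from -0.90 to 0.26, limma adjusted p = 0.743), and with median centring it was 0.08.

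The lowest estimate at D3 was that of Dnah6, at -0.49 (95% interval from -1.42 to 0.45, limma adjusted p = 0.763). Dnah6 was at 4.93, 3.45, 4.48, 4.67 and 4.84 in D3 lungs of mice 16 to 20, a range that overlaps D0. Dnah5 followed at -0.44 (-1.25 to 0.37), Ccdc39 at -0.40 (-0.96 to 0.16) and Dnah2 at -0.37 (-1.23 to 0.48). At the other end, Dnah9, below background throughout, was at 0.19, and Dnah1 was at 0.07. By role, the medians at D3 were -0.27 for dyneins, -0.19 for regulators, -0.15 for tektins and other axoneme genes and -0.06 for radial spokes and the central pair. The 95% interval left out a 2-fold change in either direction for 29 of 32 members. Among these, Dnah9, Spag6 and Dnah1 were above background on 0, 1 and 3 of 19 lung arrays, and their intervals say nothing of a change. Spag17, Spag16, Lrrc6, Rfx2, Rfx3 and Ak7 were above background on 10 to 16 of the 19, and their intervals rest partly on background signal. A change of 1.5-fold lay within the interval of Foxj1, so changes of that size were not detectable in all members with these numbers of mice.

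The wider lists read much the same way in lung. At D3, 0 of 70 other motile cilia genes, 0 of 40 general cilium genes and 0 of 8 club cell markers were called, with medians of -0.14, -0.04 and -0.10. Scgb1a1 was at -0.10 ± 0.285. The mean of heart muscle markers was between 0.17 and 2.73 over D3 lungs and between 0.41 and 1.65 over D0 lungs, and its part in these differences was not tested.

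In forestomach, 0 probes of all 55681 (0%) and 0 members were called at D1, D2 or D3 by limma, and 2 (Mcidas and Dnah5), 0 and 0 members had an unadjusted p under 0.05. Over all probes, 2404, 1728 and 1984 had one. The members' medians were 0.00, 0.00 and 0.03. Of the 32 members, 14, Dnah5 among them, were above background on none of the 19 forestomach arrays. For these the tests compared background with background and say nothing of a change. Another 13 were above background on some arrays only, and 5 on all. The same limit holds for the D3 change of lung minus forestomach given below. The widest estimates at D3 were 0.52 ± 0.396 for Ccdc113 and -0.36 ± 0.210 for Myb, both with an adjusted p of 1. Ccdc113 was at 1.89, 1.69, 0.92 and 0.52 in the 4 D3 forestomachs (mice 16 to 19, with mouse 18 the mean of its 2 arrays) and between 0.29 and 1.71 at D0. The groups overlapped. The mean of glandular stomach markers was between 3.73 and 6.54 in D3 forestomachs and between 0.45 and 6.91 in D0 forestomachs, and its part in these differences was not tested. Subtracting the D3 change of forestomach from that of lung gave 0 members called and 0.172% of probes, with a median of -0.18 over the members, a smallest adjusted p of 1 in limma and 0 members with an unadjusted p under 0.05.

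**Figure D3:**
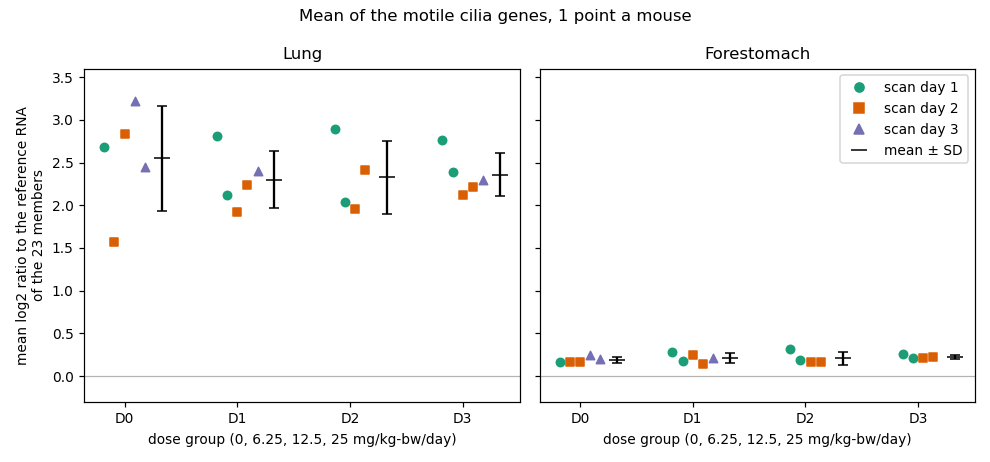
Mean log2 ratio of the 23 members that were well above background on all 19 lung arrays (vertical axis) in each mouse, by dose group (horizontal axis), for lung (left) and forestomach (right), with the scan day as colour and shape and mean ± SD beside the points. The D0 lungs alone run from 1.57 to 3.22, and all forestomachs lie between 0.14 and 0.32.

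These genes varied more between lungs of the same dose than between dose means. The mean over the 23 members that were well above background on every lung array was 1.57 in D0 mouse 3 and 3.22 in D0 mouse 5. In mice 1, 2 and 4 it was 2.45, 2.69 and 2.83. The D0 lungs averaged 2.55 ± 0.615 (SD, n = 5), the D1 lungs 2.30 ± 0.336 (n = 5), the D2 lungs 2.33 ± 0.429 (n = 4) and the D3 lungs 2.36 ± 0.251 (n = 5), so the doses differed by less than the spread between mice. Of the 23 members, D0 mouse 3 was the lowest of all 19 lungs for 16, and D0 mouse 5 the highest for 16. Within slides, the mean at D3 minus D0 was -0.30, 0.55, -0.62 and -0.54 on slides 2 to 5, and slide 1 held no D0 lung. Within scan days it was -0.11, -0.04 and -0.54, with 1 or 2 lungs a group. With slide as a block, 0 members were called for the mean of the doses, with a smallest adjusted p of 0.155 in limma.

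This spread was wide against other genes. The SD within dose groups had a median of 0.481 over the 23 members, from 0.151 for Mcidas to 0.822 for Dnah6. The median over 20619 probes that were well above background on every lung array was 0.175, and their 90th percentile was 0.340. Of the 23 members, 21 lay above that percentile. Tppp3, at 0.256, and Mcidas lay below it.

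Foxj1 and the axoneme genes moved together between mice. Deviations of each gene from its dose group mean were correlated with those of Foxj1 over the 19 lungs. Against the 22 other members above background on every lung array, the median Pearson r was 0.83, and 15 of them (68.2%) had an r of at least 0.8. Over 20618 such probes the median r was 0.07, and 1.72% reached 0.8. Over 55 other motile cilia genes above background on every lung array, the median r was 0.83, and 65.5% reached 0.8. These values were 0.52 and 5.56% for 36 general cilium genes, and 0.69 and 37.5% for 8 club cell markers. These lungs share slides and scan days.

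**Figure D4:**
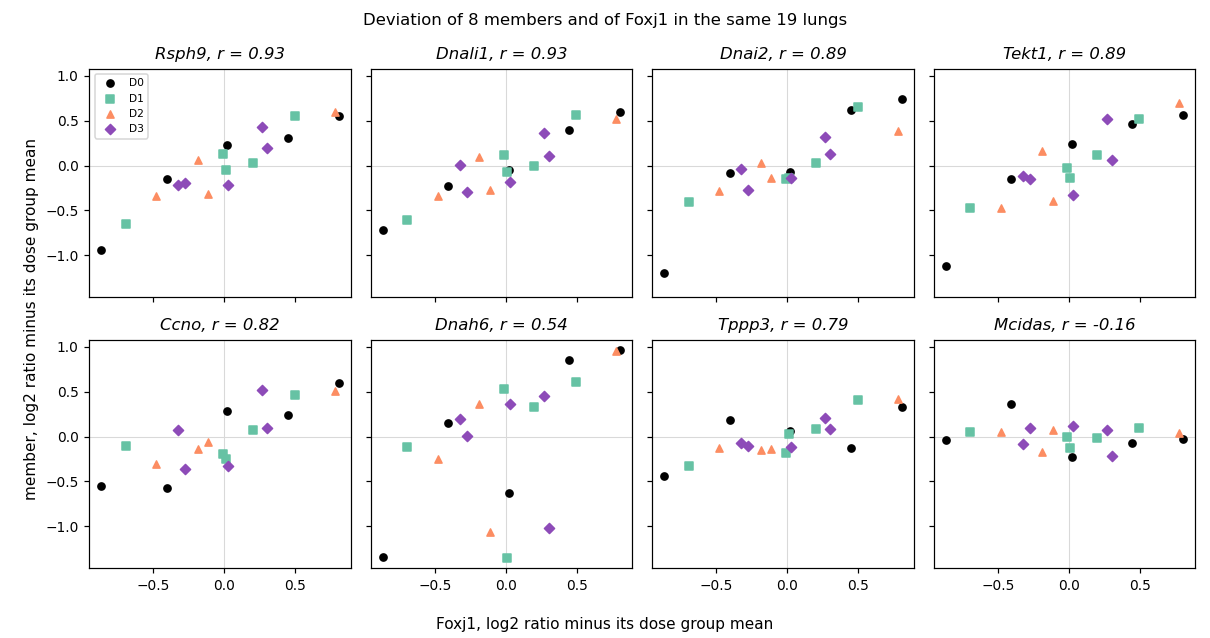
Each panel plots 1 member (vertical axis) against Foxj1 (horizontal axis) as log2 ratio minus the dose group mean in 19 lungs, with the dose group as colour and shape and Pearson r in the title. Rsph9, Dnali1, Dnai2 and Tekt1 follow Foxj1 closely, Dnah6 has 4 lungs at middle values of Foxj1 that lie below the other lungs there, and Mcidas stays near 0.

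The highest values were those of Rsph9 (r = 0.93, Spearman's rho = 0.88, two-sided permutation p = 2e-05, adjusted p = 0.000288 over 36 relations) and Dnali1 (r = 0.93, rho = 0.87). Dnai2 and Tekt1 both had an r of 0.89, and Rsph1 had 0.88. Among regulators, Ccno reached 0.82 and Myb 0.74. Mcidas had an r of -0.16 (rho = -0.11, permutation p = 0.644). It was the only negative value among these 22. Rfx2 and Rfx3, above background on 15 lung arrays each, had an r of 0.22 and 0.15. In all, 24 of 31 members passed an adjusted p of 0.05 over the 36 relations, all in the positive direction, and 23 did so by rank. The permutations took no account of slides, so these p-values treat lungs that share a slide as independent.

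Leaving out D0 mice 3 and 5, whose Foxj1 deviations from the dose group mean were the farthest from the median deviation, the median r over the 22 members was 0.73. It was 0.90 within scan day 1 (7 lungs) and 0.92 within scan day 2 (8 lungs), and scan day 3 held only 4 lungs. Within scan days 1 and 2 a dose group held 1 or 2 lungs. After its mean is removed, a single lung is at 0 and 2 lungs mirror each other. Each r thus rests on fewer independent values than lungs. The lungs of a dose group also lay on different slides, so these values cannot tell mice from slides. With slide means removed as well, the median r was 0.71, and 14 rather than 24 members passed. Dnah6 had an r of 0.54 with Foxj1 (rho = 0.63), the lowest of the dyneins above background on every lung array. On slide 2, Dnah6 was at 4.33, 3.15, 3.36 and 3.45 in D0 mouse 2, D1 mouse 7, D2 mouse 12 and D3 mouse 17. Over the 15 lungs of the other slides it ran from 3.62 to 5.93 with a median of 4.84. Foxj1 was above its median over the other slides, 3.15, in 3 of these 4 lungs and below it in D2 mouse 12. Slides accounted for 0.731 of the variance of Dnah6 in lung (R2), and for more in Dnah11 (0.765) and Rsph4a (0.787). Over the 23 members above background on every lung array, this share ran from 0.431 (Dnah2) to 0.787, with 0.508 for Foxj1. The share of dose groups ran from 0.0129 (Ccdc113) to 0.173 (Mcidas) over the same members. Such shares lie above 0 by chance alone, more so for slides, which outnumber the dose groups, and were not adjusted for this. Neither share was computed over all probes.

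Markers of other cells were set against Foxj1 in the same way. Scgb1a1 of club cells, which share the airway epithelium, had an r of 0.70 (rho = 0.63, permutation p = 0.00346, adjusted p = 0.00566). Ager of type 1 cells had 0.66, Acta2 of smooth muscle 0.58, Myh6 of heart muscle 0.07 and Sftpc of type 2 cells 0.05. Over the listed genes above background on every lung array, the median r was 0.69 for club cells and 0.71 for smooth muscle. It was 0.46 for type 1 cells, 0.21 for type 2 cells and 0.30 for heart muscle. Without D0 mice 3 and 5 the r of Acta2 was 0.23, and that of Scgb1a1 was 0.66. The mean of the club cell markers was 4.09 in D0 mouse 3 and 5.52 in D0 mouse 5, the lowest and highest of the 19 lungs. The mean of smooth muscle markers was 0.15 and 1.57 in the same lungs, and the general cilium list was at -0.36 and 0.08. The share of probes above background was 43.3% and 46.2%. The part of these differences in the spread of the members was not tested.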

How the data were processed

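The 38 arrays (19 lung, 19 forestomach) were Agilent mouse arrays scanned by the authors with Feature Extraction 10.7.3.1. The deposited scanner files hold spot intensity values on a linear scale, without background subtraction or normalization, for 62976 spots per array, and a deposited Feature Extraction log10 ratio. A value table deposited by the authors holds log2 ratios, though its scale is not stated. Against the ratios computed here its columns had slopes of 0.990 to 0.998, correlations of 0.995 to 0.999 and medians of -0.0415 to -0.0195, so it was taken to be log2 Cy5/Cy3, and it served as an alternative.

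Following the study's methods, median intensities were loess-normalized within arrays, with no background correction. Control spots and outlier flags were left out (372 probe values emptied), and repeated spots were averaged, leaving 55681 probes. Symbols came from a RefSeq table (GRCm38.p6) by accession, for 26413 probes. Dnai1 and Dnai2 are listed there as Dnaic1 and Dnaic2. Array files use build mm9, and no array coordinates are given. limma 3.58.1 in R 4.3.3 was fitted with 1 mean per group, over all dose groups of a tissue or over all arrays for comparisons between tissues. MAANOVA, the package the study used, was not used here. Correlations used 100000 permutations within dose groups, in Python 3.11.15 with numpy 2.4.6.

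Members and lists were chosen with earlier results of these data known. All members with a probe could be named, with values by mouse for Foxj1 and for the largest and smallest differences, and, of the other lists, the 5 largest called differences and the first marker of each. Both tissues of a mouse carry 1 number in the labels, which pairs them. Deviations of the 18 such pairs correlated between 0.0753 and 0.250 over probes (median 0.187). Alternatives were other normalizations, sources of the ratio, a filter on dim probes, other probes of a gene, slide, scan day or mouse as a block, either array of mouse 18, and leaving out each mouse. The scripts were tested on simulated data. The number of arrays limits the precision.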

Additional observations from a re-analysis of the deposited data

Results flagged for a closer look

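Among 120 groups of 4 or 5 mice examined (14 members and the mean of the members above background, in 8 groups), 6 held a mouse set apart from the rest by more than Dixon's 95% critical gap, and chance gives about 1 in 20. In forestomach, Foxj1 was at -0.38 in D1 mouse 6, against -0.10 to -0.03 in the other D1 mice, with the probe below background on all of these arrays. Tppp3 was at 2.09 in the forestomach of D3 mouse 19, against 3.06 to 3.19. The 3.06 is the mean of the 2 arrays of mouse 18, which gave 4.00 and 2.12, so this gap rests on the averaging. In lung, Tppp3 was at 5.16 in D2 mouse 11 against 4.59 to 4.61, and Mcidas was at 0.93 in D2 mouse 15 against 1.13 to 1.17. Ccdc39 was at 1.59 in the lung of D1 mouse 6 against 0.86 to 1.06. Ccdc113 was at 4.21 in the lung of D3 mouse 16 against 3.65 to 3.73. The flagged samples of D1 mouse 6, D2 mouse 11 and D3 mouse 16 were all on slide 1. Those of D2 mouse 15 and D3 mouse 19 were on slide 4.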

How the results depend on the processing

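The counts of members called kept their value or stayed within 1.5 times of it under every alternative run. For untreated lung against forestomach they ran from 22 (median centring in place of loess) to 27 (Feature Extraction log ratio), and from 23 to 26 without 1 mouse. In every exposure comparison they stayed at 0, with the smallest adjusted p in limma between 0.0813 and 1 over all alternatives. The mouse number as a replicate block, fixed or random, could be fitted only between tissues. With it, 26 members were called in untreated mice and 0 in the D3 response, so the pairing did not change these counts. Counts over all probes moved further. With median centring, 4553 probes rather than 9034 were called between untreated tissues, 0 rather than 78 at lung D1, 5 rather than 147 at D2, 16 rather than 356 at D3, 16 rather than 229 for the mean of the doses and 2 rather than 96 for the D3 response of lung minus forestomach. The Feature Extraction log ratio gave 160, 225 and 411 at D1, D2 and the mean. Slide as a block gave 130 at D1, 242 at D2 and 204 for the D3 response between tissues, and scan day as a block gave 199 for the last. Without the lung of D2 mouse 12 the D2 count was 93, and without the forestomach of D3 mouse 16 the count between tissues was 60. At forestomach D3, 1 probe was called with the filter on dim probes and 3 with only D0 and D3 fitted, against 0. The members' median in untreated mice was 3.08 with the Feature Extraction log ratio, and the cause was not tested. The Foxj1 difference in untreated mice ran from 2.17 (median centring) to 5.14 (Feature Extraction log ratio). In lung the members' medians ran, without 1 mouse, from -0.449 to -0.0911 at D1, from -0.3208 to -0.0256 at D2 and from -0.3534 to -0.0304 at D3. In forestomach the medians are near 0 and moved by more than the SD of the members' mean over D0 forestomachs (0.0226). With the filter on dim probes they were 0.0623 at D1, 0.0856 at D2 and 0.1207 at D3. The D3 median was 0 with the Feature Extraction log ratio and -0.0172 with median centring. Without 1 mouse the medians ran from -0.0314 to 0.0071 at D1, from -0.0304 to 0.0501 at D2 and from -0.0036 to 0.0473 at D3. The correlations with Foxj1 passed for 14 members with slide means removed. Dnah1 and Dnah9 were below background in all D0 mice, and 17 other members were below background on all D0 forestomach arrays.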
